A study of Mus musculus with 4 samples.

Results

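The 40 genes described here encode the machinery that brings newly made proteins into the endoplasmic reticulum (ER), attaches N-linked glycans to them and carries them between the ER and the Golgi in coated vesicles. They were selected by gene name, and all 40 were on the array, among 17871 named genes tested. They fell into 8 groups by role: 9 genes of the translocon, 7 of signal recognition, 3 of signal peptidase, 3 of the oligosaccharyl transferase, 6 of the COPII coat, 7 of the COPI coat, 3 KDEL receptors and 2 cargo lectins. Together they had 72 non-control probes, of which 71 were tested and 1 dim SEC24D probe was not.

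The RNA came from the established human lung carcinoma cell line H460 after 4 h with 250 µM farnesol (FOH), an isoprenoid alcohol, or with its vehicle dimethyl sulphoxide (DMSO). The title of the study places it in the question of whether farnesol engages the ER stress response. There were 2 replicate experiments, and the farnesol RNA of each was hybridised together with its matched vehicle RNA on 2 arrays with exchanged dyes, which makes 4 arrays and n = 2. The labels do not say whether the experiments used separate cultures, so the spread between them may be partly technical, and both come from 1 cell line. The organism label names the mouse, whereas the protocol names this human line and the symbols on the array are human, so the genes were read as human. Equal amounts of labelled RNA from both conditions went onto each array, so that fewer cells and less RNA per cell cannot be told apart, and a ratio is relative to the other transcripts.

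Proteins bound for secretion or for membranes begin with a signal sequence, which the signal recognition particle binds on the ribosome and brings to its receptor at the ER. The chain then passes through the SEC61 channel while signal peptidase removes the signal sequence and the oligosaccharyl transferase adds a preassembled glycan. COPII-coated vesicles bud from the ER with folded cargo, COPI-coated vesicles return from the Golgi, and KDEL receptors retrieve ER residents that escaped. In the unfolded protein response, many genes of this machinery are known to be targets of the transcription factor XBP1.

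After farnesol, most of these transcripts gave slightly less signal than after vehicle, and none changed as far as 2-fold. The median of the 40 mean log2 ratios of farnesol over vehicle was -0.22, which is 14.2% below vehicle, against a median of 0.01 over all named genes. The members ranged between -0.77 (SEC63) and 0.26 (KDELR1). On all 4 arrays, 22 of the 40 were lower with farnesol, where 24.7% of all named genes were, and 2 (SSR4 and SEC61A2) were higher, where 21% of all named genes were. The remaining 16 had arrays on both sides of 0. Among 5527 named genes of like intensity, 34% were lower and 25.1% higher on all 4 arrays, and their median was -0.02.

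No member passed limma's moderated test with Benjamini-Hochberg adjustment over all 28594 features, whose threshold was 0.05: the lowest adjusted p was 0.191. The test called 3 features in all, or 0.0105%. On simulated data whose true SDs were drawn from the observed SDs, the test called 0 of 50 features with a true log2 ratio of 1. Those observed SDs rest on n = 2 themselves, so the simulated SDs were more uneven than the true ones, which can weaken the test. In that setting the test was unlikely to call changes of the members' size, and its reach in the real data was not measured. At an unadjusted p under 0.05, 14 members were lower and 1 (SSR4) was higher, against 13% and 4% of the named genes. A limma fit on the 4 single arrays, with the replicate as a random effect, called 11 members, all lower, but also 2894 of the 28594 features. That fit used 1 correlation of 0.549 between arrays of a replicate for every gene. In 32 of the 40 members the replicates lay further apart than the dye-swapped arrays of either pair, so its p-values may be too small for them. A ratio of 2-fold or more in each replicate, with one sign on all 4 arrays, was reached by 0 members, against 0.834% of named genes higher and 0.313% lower. Ratios were centred within each array by loess. With median centring instead, the members' median was -0.39 and that of all named genes -0.03, and 25 members were lower and 0 higher on all 4 arrays. The same step turned the count over all named genes to 2402 higher and 5266 lower, against 3746 higher and 4417 lower with loess. It also gave 123 named genes at least 2-fold higher and 108 lower, against 149 and 56 with loess.

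**Figure D1:**
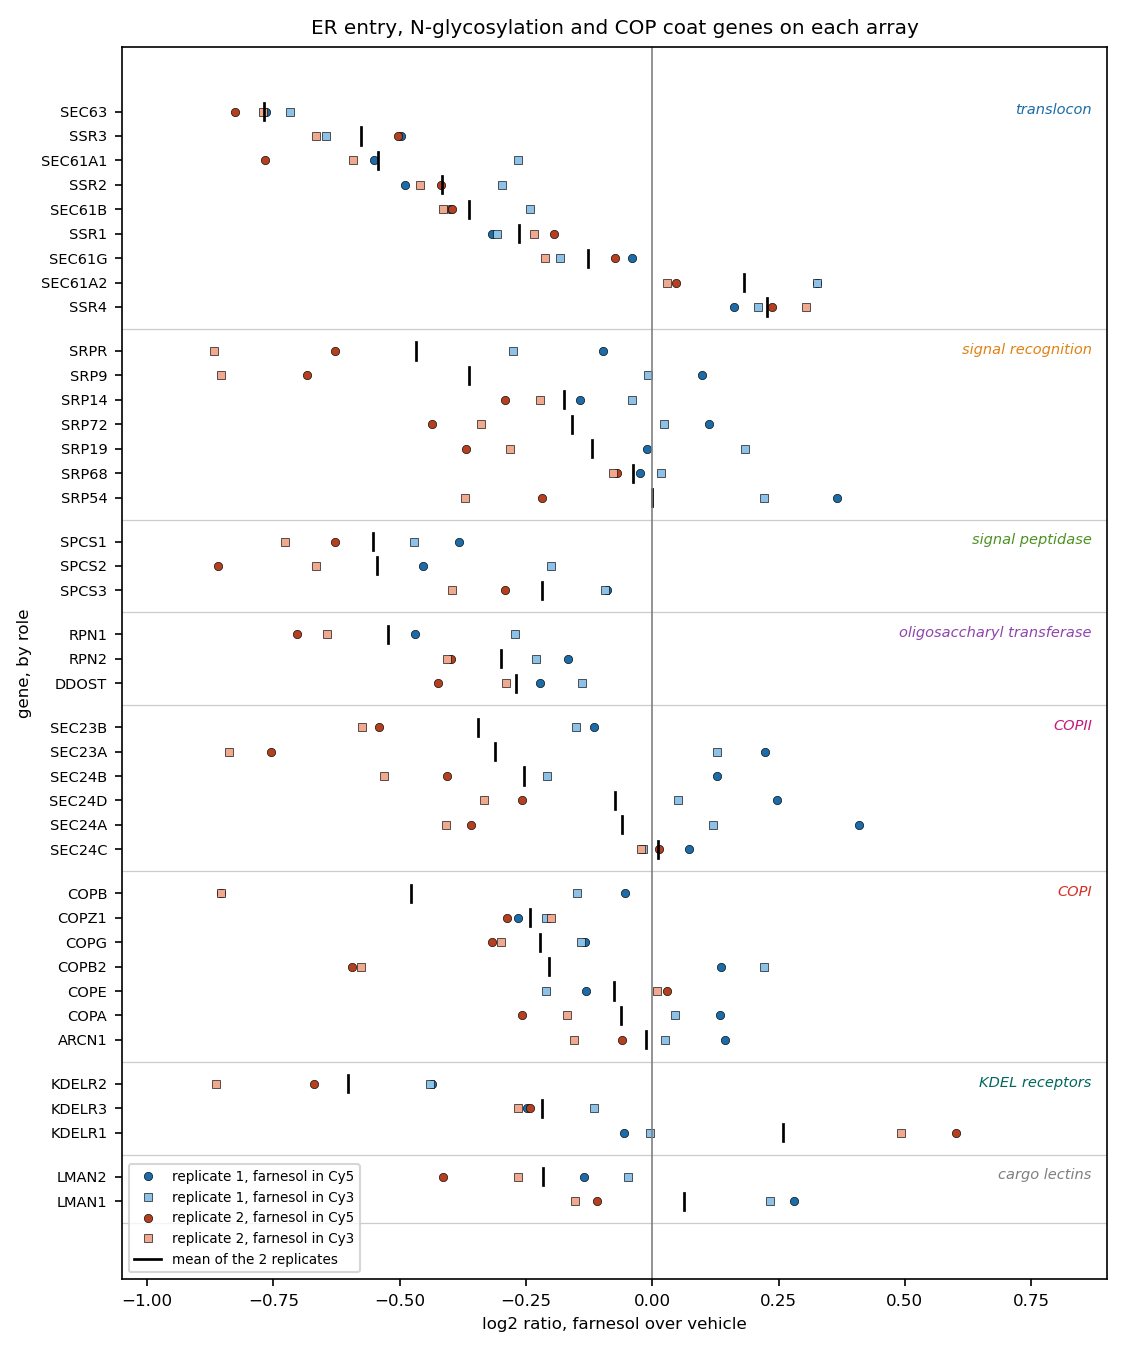
Log2 ratio of farnesol over vehicle for each of the 40 genes on each of the 4 arrays, ordered by role group, with the mean of the 2 replicates. Translocon, signal peptidase and oligosaccharyl transferase genes sit mostly left of 0 on every array, with SSR4 and SEC61A2 to the right, whereas many signal recognition and coat genes have replicate 1 near or above 0 and replicate 2 below it.

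The data were of even quality for these genes. All 40 brightest probes were well above background in both channels on all 4 arrays, and 0 were saturated or marked as outlying spots. Over the whole array, 82.7% to 93.0% of probes were well above background per channel. Log2 ratios of dye-swapped arrays correlated across named genes with r of 0.965 and 0.959, and those of different replicates with r between 0.675 and 0.712. The number of arrays limits the precision. All 5 epithelial keratin and adhesion markers were well above background on all arrays (mean log2 intensity 7.38 to 14.3). Their log2 ratios lay between -0.65 (KRT19) and -0.20 (KRT8), on the same side of 0 as the members' median of -0.22. By their brightest probes, 4 of 5 leukocyte, 3 of 5 fibroblast and 3 of 4 endothelial markers were also above background on all arrays, and CD3D, PDGFRB, POSTN and PECAM1 were not. Those above it had mean log2 intensities of 6.69 (PTPRC) to 8.88 (CD14), 6.67 (COL3A1) to 7.51 (COL1A1) and 6.74 (CDH5) to 8.21 (KDR). The log2 ratios of all 3 kinds lay between 0.00 and 0.31. The part of any of these markers in the results was not tested.

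The translocon held the lowest single value, that of SEC63, and the group with the smallest median SD between replicates. Of its 9 genes, 7 were lower and 2 higher on all 4 arrays, with a median log2 ratio of -0.36 (-0.32 in replicate 1 and -0.41 in replicate 2). That SD was 0.06, beside 0.09 over all named genes and 0.14 over named genes of like intensity. SEC63, a membrane protein that couples the SEC61 channel to the lumenal chaperone BiP, had log2 ratios of -0.76 and -0.72 on the arrays of replicate 1 and -0.83 and -0.77 on those of replicate 2. Its intensity was 246, 220, 217 and 195 with farnesol, against 418, 361, 384 and 332 with vehicle. Intensities are given after background correction, loess within arrays and quantile normalization between arrays. The farnesol and vehicle values of SEC63 did not overlap. Its mean was -0.77 ± 0.04 (SD, n = 2; 95% interval -0.96 to -0.58; limma adjusted p = 0.191), or 41.3% below vehicle. Its other 2 probes had means of -0.60 and -0.48. The genes given here with intensities were picked for low ratios on all 4 arrays, which favours values without overlap. How many of all named genes lacked overlap was not counted.

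SSR3, the gamma subunit of the translocon-associated protein complex (TRAP) that assists some chains into the channel, had log2 ratios of -0.50 and -0.65 in replicate 1 and -0.50 and -0.66 in replicate 2. Its intensity was 603, 446, 567 and 424 with farnesol, against 850.2, 697, 803 and 672 with vehicle. All 4 farnesol values of SSR3 lay below all 4 vehicle values. The mean was -0.58 ± 0.01 (SD, n = 2; 95% interval -0.76 to -0.40; limma adjusted p = 0.191), or 33.0% below vehicle, while its second probe gave -0.21.

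SEC61A1, the pore-forming alpha subunit of the channel, had log2 ratios of -0.55 and -0.27 in replicate 1 and -0.77 and -0.59 in replicate 2. Its intensity was 257, 231, 213 and 188 with farnesol, against 376, 277, 362 and 283 with vehicle, so that the groups did not overlap. The mean was -0.54 ± 0.19 (SD, n = 2; 95% interval -0.86 to -0.22; limma adjusted p = 0.227). Its paralogue SEC61A2 had the opposite sign: 0.33 in replicate 1 and 0.04 in replicate 2, mean 0.18 ± 0.20, with 1 of its 3 probes at -0.02. The small subunits SEC61B and SEC61G had means of -0.36 ± 0.06 and -0.13 ± 0.02, and both probes of SEC61B were at -0.36.

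The 4 TRAP subunits did not share a sign. SSR2 was at -0.42 ± 0.03 and SSR1 at -0.26 ± 0.07 beside SSR3, whereas SSR4 had log2 ratios of 0.16, 0.21, 0.24 and 0.30 and a mean of 0.23 ± 0.06 (SD, n = 2; limma adjusted p = 0.300). SSR4 was the only member whose unadjusted p was under 0.05 on the higher side, and with median centring its mean was 0.00, where SEC61A2 had 0.08.

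**Figure D2:**
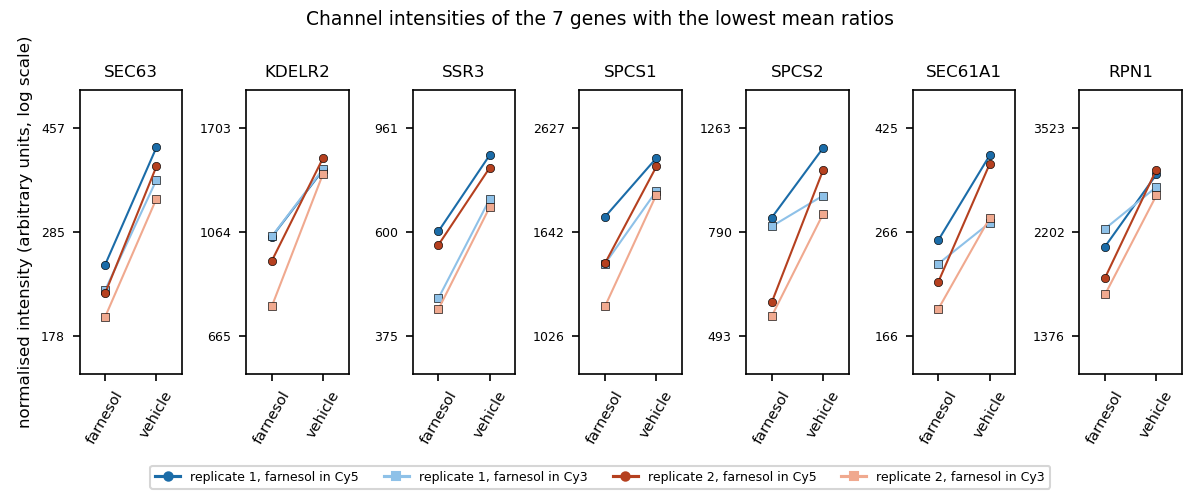
Intensity, on a log axis, of the 7 genes with the lowest mean ratios, with the farnesol and vehicle channels of each array joined. Intensities are shown after background correction, loess within arrays and quantile normalization between arrays. In all 7 genes the farnesol channel lay below the vehicle channel of the same array.

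The signal peptidase genes, whose products cut the signal sequence off or support the cut, were lower on all 4 arrays in 3 of 3 cases, with a median of -0.54. SPCS1 had log2 ratios of -0.38 and -0.47 in replicate 1 and -0.63 and -0.73 in replicate 2. Its intensity was 1760, 1424, 1427 and 1175 with farnesol, against 2294, 1976, 2208 and 1944 with vehicle, and the groups did not overlap. The mean was -0.55 ± 0.18 (SD, n = 2; 95% interval -0.86 to -0.25; limma adjusted p = 0.220).

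SPCS2, another accessory subunit, had log2 ratios of -0.45 and -0.20 in replicate 1 and -0.86 and -0.67 in replicate 2. Its intensity was 843, 810.3, 575 and 540.3 with farnesol, against 1154, 931, 1044 and 857 with vehicle. Replicate 2 was the lower one, and the groups did not overlap. The mean was -0.54 ± 0.31 (SD, n = 2; 95% interval -1.01 to -0.08; limma adjusted p = 0.298). SPCS3 was closer to 0, at -0.09 in replicate 1 and -0.34 in replicate 2.

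The oligosaccharyl transferase genes were likewise on one side, with 3 of 3 lower on all 4 arrays and a median of -0.30. RPN1 (ribophorin I), a subunit that presents some membrane proteins to the enzyme, had log2 ratios of -0.47 and -0.27 in replicate 1 and -0.70 and -0.64 in replicate 2. Its intensity was 2062, 2235, 1792 and 1661 with farnesol, against 2856, 2699, 2918 and 2597 with vehicle, without overlap. The mean was -0.52 ± 0.21 (SD, n = 2; 95% interval -0.87 to -0.17; limma adjusted p = 0.249), and its other probes gave -0.60 and -0.45. RPN2 (ribophorin II) was at -0.30 ± 0.14 and DDOST, another non-catalytic subunit, at -0.27 ± 0.12, but a second DDOST probe gave 0.14.

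The genes of signal recognition stood nearer to 0 and differed more between replicates. Of 7, 2 (SRP14 and SRPR) were lower on all 4 arrays and 0 higher, with a group median of -0.16 that was 0.04 in replicate 1 and -0.33 in replicate 2. SRPR, the alpha subunit of the particle's receptor, had -0.19 in replicate 1 and -0.75 in replicate 2 (mean -0.47 ± 0.40; limma adjusted p = 0.422), and its second probe -0.12. SRP9, which with SRP14 forms the part of the particle that pauses translation, had 0.04 and -0.77. Its 4 probes all showed this order, between -0.11 and 0.04 in replicate 1 and between -0.77 and -0.49 in replicate 2.

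SRP54, the subunit that binds the signal sequence, had log2 ratios of 0.29 in replicate 1 and -0.29 in replicate 2, so that no direction can be given for it. SRP72 and SRP19 likewise had 0.07 and 0.09 in replicate 1 and -0.39 and -0.33 in replicate 2. A second, dimmer SRP19 probe did not show this change of sign, with 0.11 in replicate 1 and 0.10 in replicate 2. SRP14 had -0.09 in replicate 1 and -0.26 in replicate 2, and SRP68 a mean of -0.04 ± 0.05. In 7 of 7 genes replicate 2 was the lower one.

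The COPII coat genes, which encode the inner layer of vesicles leaving the ER, included the gene with the widest gap between replicates. Of 6, 1 (SEC23B) was lower on all 4 arrays, with a group median of -0.16 that was 0.09 in replicate 1 and -0.43 in replicate 2. SEC23A had log2 ratios of 0.22 and 0.13 on the arrays of replicate 1, and of -0.76 and -0.84 on those of replicate 2. The gap of SEC23A was 0.97 (mean -0.31 ± 0.69; limma adjusted p = 0.694). Its second, dimmer probe had 0.04 in replicate 1 and -0.23 in replicate 2, the same order with a smaller gap. SEC23B had -0.13 and -0.56 in replicates 1 and 2. Of the cargo adaptors, SEC24A had 0.26 and -0.38, SEC24D 0.15 and -0.30 and SEC24B -0.04 and -0.47 in the same order, while SEC24C was at 0.01 ± 0.02.

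Of the 7 COPI coat genes, whose products form the coatomer of vesicles returning to the ER, 3 (COPB, COPG and COPZ1) were lower on all 4 arrays, and the group median was -0.20. COPB and COPB2, the beta and beta-prime subunits, had -0.10 and 0.18 in replicate 1 and -0.85 and -0.59 in replicate 2. COPZ1, the zeta subunit, had -0.24 in both replicates, and -0.55 from a second, dimmer probe. COPG, the gamma subunit, was at -0.22 ± 0.12. COPA (-0.06 ± 0.21), COPE (-0.08 ± 0.13) and ARCN1 (-0.01 ± 0.14), the alpha, epsilon and delta subunits, lay within their spread of 0.

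The 3 KDEL receptors did not go together. KDELR2 had log2 ratios of -0.44 and -0.44 in replicate 1 and -0.67 and -0.86 in replicate 2. Its intensity was 1041, 1043, 935 and 761 with farnesol, against 1409, 1415, 1488 and 1386 with vehicle, and the groups did not overlap. The mean was -0.60 ± 0.23 (SD, n = 2; 95% interval -0.97 to -0.23; limma adjusted p = 0.234), with -0.53 and -0.20 from its other probes.

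KDELR1 had -0.05 and -0.01 on the arrays of replicate 1 but 0.60 and 0.49 on those of replicate 2, a mean of 0.26 ± 0.41 (limma adjusted p = 0.600), so its sign rests on replicate 2. Its second probe had the same order and a mean of 0.02, and with median centring the first probe's mean was 0.05. KDELR3 was lower on all 4 arrays, at -0.22 ± 0.05. The cargo lectins, which bind glycoproteins in the ER and on the way to the Golgi, were at -0.22 ± 0.18 (LMAN2, lower on all 4 arrays) and 0.06 ± 0.27 (LMAN1). LMAN1 had 0.26 in replicate 1 and -0.13 in replicate 2, and its mean was -0.07 with median centring.

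Read across roles, the groups differed in how closely the replicates came together. This division of the groups into blocks was made after their values were seen, and it carries no test. The 3 KDEL receptors and 2 cargo lectins, each group with a median SD of 0.23, were left out of it. In the 15 genes of the translocon, signal peptidase and oligosaccharyl transferase, 13 were lower on all 4 arrays, 2 higher and 0 mixed, with a median SD of 0.12. The median SD was 0.09 over all named genes and 0.14 over those of like intensity, so 0.12 is not unusually small. In the 20 genes of signal recognition, COPII and COPI, 6 were lower, 0 higher and 14 mixed, with a median SD of 0.30. By group, the median SD was 0.32 for signal recognition and 0.31 for COPII, but 0.14 for COPI. The COPI value was no wider than those of the oligosaccharyl transferase (0.14) and signal peptidase (0.18), so the blocks do not separate all groups by SD. The first block had medians of -0.32 in replicate 1 and -0.41 in replicate 2, and the second 0.04 and -0.32.

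**Figure D3:**
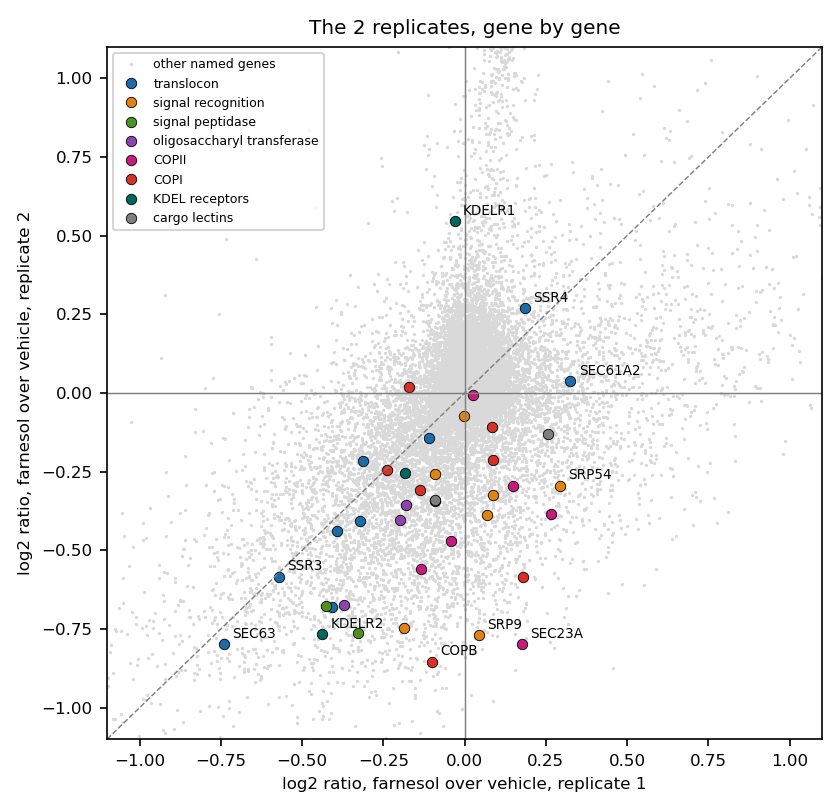
Log2 ratio of farnesol over vehicle in replicate 2 (vertical axis) against replicate 1 (horizontal axis), 1 point per gene and coloured by role group, with the line of equal values and other named genes in grey (those beyond the axes not shown). Of the 40 coloured points 36 lie below the line, with SEC23A farthest from it and KDELR1 above it.

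Replicate 2 gave a lower log2 ratio than replicate 1 in 36 of the 40 genes, against 50.6% of all named genes and 55.3% of named genes of like intensity. In replicate 1, 26 members were below 0 and the median was -0.10, and in replicate 2, 36 were below 0 and the median was -0.35. The 12 genes above 0 in replicate 1 and below 0 in replicate 2 compare with 17.6% of all named genes, and 2 members (COPE and KDELR1) had the opposite order. In 29 genes both arrays of replicate 2 lay below both arrays of replicate 1, a pattern seen in 35.1% of named genes. Exchanging the dyes moved the ratio less: the median gap between arrays of a pair was 0.09 in replicate 1 and 0.08 in replicate 2, whereas the median gap between replicates was 0.26. Across the 40 genes the replicates correlated with Pearson's r of 0.44 and Spearman's rho of 0.46, as a description over genes that share their arrays. The ER chaperone gene HSPA5 (BiP), the standard readout of ER stress, also differed between the replicates, with log2 ratios of 3.17 and 1.66 (mean 2.42 ± 1.07; limma adjusted p = 0.236), and XBP1 had 2.22 and 0.67. The part of this difference in the members' values was not tested.

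Probes of one gene mostly had the same sign. Of 23 genes with several tested probes, 17 had all probe means on one side of 0 and 6 did not. The median gap between the highest and lowest probe mean was 0.17 and the largest was 0.41 (DDOST). Of the 71 tested probes, 38 were lower and 5 higher on all 4 arrays. Genes with several probes enter this count more than once. The same share over all tested probes of the array was not counted, so these counts have no background beside them.

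**Figure D4:**
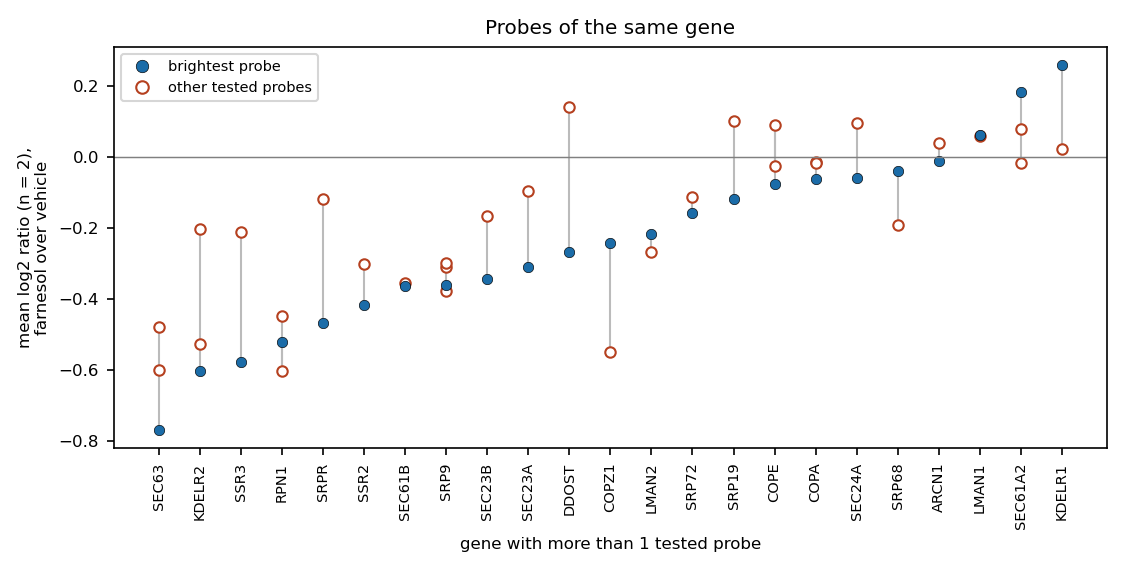
Mean log2 ratio of farnesol over vehicle for every tested probe of the genes with more than 1 tested probe, the brightest probe of each gene marked. The probes of SEC63, RPN1, KDELR2 and SRP9 all lie below 0, and the 2 probes of DDOST lie on either side of it.

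The authors' deposited table lists probes of replicate 1 whose p-value was at most 0.001. It held 7018 probes, where the array has 41000 non-control probes, and 18 of the members' 72 probes, from 13 of the 40 genes. Of these 18 probes, 14 were lower with farnesol (77.8%), beside 57.8% of the 7018. SEC63, KDELR2, RPN1 and SSR2 each entered with more than 1 probe, all lower, so the share by gene is below 77.8%. In the authors' deposited table the ratios of farnesol over vehicle were 0.536, 0.541 and 0.530 for the 3 SEC63 probes, 0.663 for SSR3 and 0.652 for COPZ1. The COPZ1 value is that of the dimmer probe, the one at -0.55 above, and not of the probe at -0.24. The probes above 1 in the authors' deposited table were those of SEC61A2 (1.32), SRP54 (1.27), LMAN1 (1.23) and SSR4 (1.17). SRP54 and LMAN1 were the genes among these 4 that had a ratio below 0 on the log2 scale in replicate 2.

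Other genes of the same routes were taken from a list of 128, of which 118 were found on the array and tested. On all 4 arrays, 64 of these (54.2%) were lower and 13 (11.0%) higher with farnesol, against 24.7% and 21% of all named genes. The median of the 118 was -0.17 (-0.10 in replicate 1 and -0.27 in replicate 2), against 0.01 over all named genes. At an unadjusted limma p under 0.05, 39 of the 118 were lower and 4 higher, against 13% and 4% of the named genes. After adjustment limma called 0 of the 118. Lower on all 4 arrays were 25 of 38 genes of N-glycan assembly and transfer, 8 of 16 of translocation and targeting, 5 of 10 of COPII budding, 6 of 11 of the COPI and ARF cycle, 8 of 17 of the p24 family and cargo receptors and 12 of 26 of vesicle fusion and tethering. In the last group 7 of 26 genes (26.9%) were higher on all 4 arrays, near the 21% of all named genes. Of the other 6 higher genes, 4 were of N-glycan assembly and transfer. With median centring 6 of the 118 were higher on all 4 arrays and their median was -0.31.

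**Figure D5:**
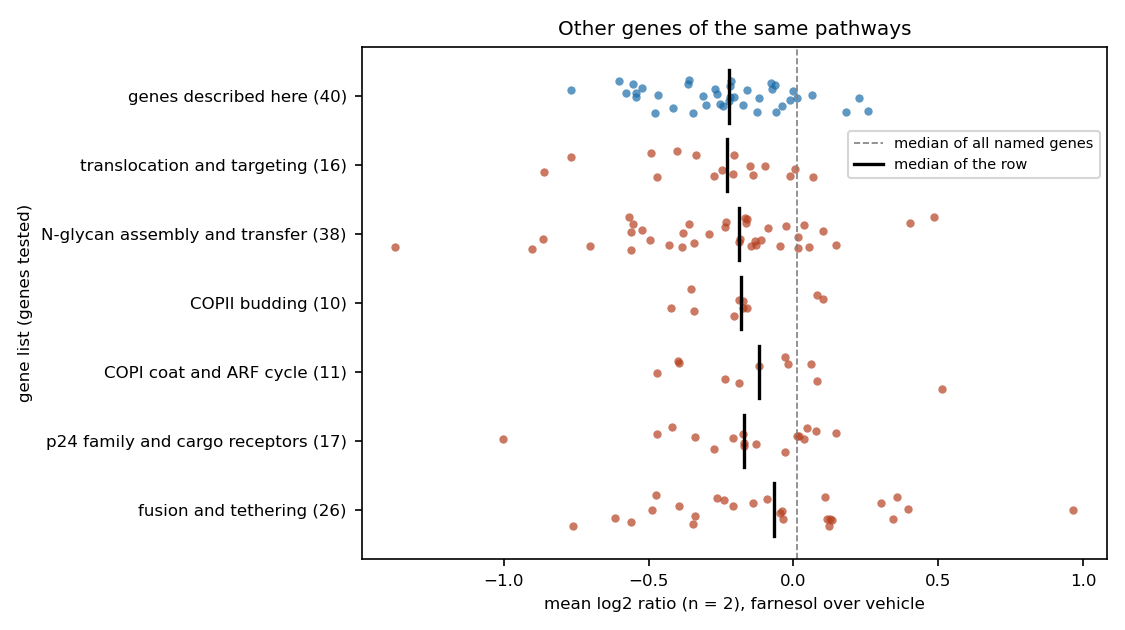
Mean log2 ratio of farnesol over vehicle of the 118 other genes of these routes, by role, 1 point per gene, with the row's median as a bar, the 40 genes described here in the top row and the median of all named genes as a dashed line. Each group's median lies below 0, between -0.23 for translocation and targeting and -0.07 for fusion and tethering, and ITM1 is the lowest point and GOLGB1 the highest.

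The 5 lowest of these were led by ITM1 (STT3A), a catalytic subunit of the oligosaccharyl transferase. It had log2 ratios of -1.42 and -1.47 in replicate 1 and -1.32 and -1.28 in replicate 2, a mean of -1.37 ± 0.10 (SD, n = 2; limma adjusted p = 0.191), and was the only listed gene at least 2-fold lower in both replicates. SURF4, a cargo receptor that cycles between the ER and the Golgi, had -0.92 in replicate 1 and -1.08 in replicate 2, and a mean of -0.54 by its second probe. TMEM15 (DOLK), the kinase that makes the lipid carrier of the glycan, was at -0.90 ± 0.19, and ALG5, which makes the lipid-linked glucose donor, at -0.86 ± 0.05. WRB, part of the receptor for tail-anchored proteins, was at -0.86 ± 0.27.

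The 5 highest were more divided between the replicates. GOLGB1 (giantin), a Golgi tethering protein, had 1.40 in replicate 1 and 0.53 in replicate 2 (mean 0.97 ± 0.62; limma adjusted p = 0.314), and 0.73 by its second probe. ARF4, a small GTPase of the Golgi, was at 0.51 ± 0.24. MAN1B1, a mannosidase that trims glycans of misfolded proteins, had 0.05 and 0.92, and its second probe gave -0.10. GFPT2, an enzyme of amino sugar synthesis, was at 0.40 ± 0.14, and BNIP1, a SNARE of the ER, at 0.39 ± 0.26.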

How the data were processed

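Scans of the 4 two-colour arrays were read with Agilent Feature Extraction (8.1.1.1 in the file headers, 8.1 in the submitters' processing notes). The intensity columns, as deposited, hold a spot's mean brightness and its local background's median brightness, uncorrected, per the file headers. The log10 ratio column of the deposited files sets Cy5 over Cy3 after the software's background subtraction and dye normalization, per the file headers, and its flags mark bright, saturated and outlying spots. For replicate 1 the authors deposited a linear ratio (farnesol over vehicle) with a p-value for each probe. Its header names no program. The table deposited for replicate 2 was identical to it, its replicate 1 heading included, so only authors' values of replicate 1 were used here. The direction of the ratios comes from that header, which names the 4 h farnesol channel, together with the array labels, which name the 4 h RNA and its dye. All 18 member probes in that table had the sign found here in replicate 1.

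Intensities were processed in R 4.3.3 with limma 3.58.1. Normexp (offset 50, which shrinks ratios of dim probes) preceded loess within arrays. Control spots and outliers had weight 0 in the loess and were then removed. Ratios of arrays with farnesol in Cy3 changed sign. For the channel intensities only, mean intensities were also quantile-normalised between arrays, which left the ratios as they were. Spots of a probe and then both arrays of a replicate were averaged, giving n = 2. Testing required, in one condition, a channel well above background on 1 array or more of every replicate, and the brightest probe represented its gene. Mean ratios were tested against 0 by limma's moderated test, two-sided, with 1 residual degree of freedom and Benjamini-Hochberg adjustment at 0.05. The script was tested on simulated data. Tables and plots were made in Python 3.11.15 with pandas 2.3.3 and matplotlib 3.10.9.

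The members and lists were chosen with earlier results of these data known. Given per array were members of one sign on all 4 arrays with a mean log2 ratio of at least 0.5 in size. Genes with probe means 0.5 apart would have been added, and there were 0. Of other pathway genes, the 5 highest and 5 lowest of one sign on all 4 arrays were named. The background of like intensity (mean log2 intensity between the members' quartiles, 8.10 and 10.4) was chosen after seeing the data. Gene symbols are the array's own and may be outdated: 28 pathway genes matched by an older name, and 10 were not matched by name. The reference tables supplied were of the mouse and were not used here. Alternatives were the software's log ratio and other background, normalization, filter, probe, dye and replication settings.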

Additional observations from a re-analysis of the deposited data

How the results depend on the processing

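In 11 alternative settings, the 22 genes lower on all 4 arrays kept a negative mean. For these 22 the sign could not change in settings by dye, by replicate or with the random effect, which reuse the same ratios. The filter settings left the members' values as they were. Only another background offset, normalization, log ratio or probe average could have changed the sign. Of the other members, 14 had the other sign in at least 1 setting, and the count of members at least 2-fold was 0. The features past the threshold numbered 3, against 66 with offset 0, 25 with median centring, 62 with the scanner software's log ratio, 2894 with the replicate as a random effect, and 5 and 15 from the arrays with farnesol in Cy5 or in Cy3. The random effect gave 11 members past the threshold (adjusted p 0.00148 to 0.0482 by limma), and the other settings with a test gave 0. Members with an unadjusted p under 0.05 on the higher side were 0 with offset 0, median centring, the scanner software's log ratio and the Cy5 arrays. Members higher on all 4 arrays were 0 with median centring and 1 where a gene's probes were averaged. With median centring the other pathway genes had 6 higher and a median of -0.31. Leaving out a replicate gave 24 to 35 members lower and 4 to 11 higher, and 24 to 30 other pathway genes higher. These counts need one sign on only 2 arrays and cannot be set against those over 4 arrays. By the same count, 36.0% to 41.6% of all named genes were lower and 38.2% to 40.5% higher. Without replicate 2 the medians of signal recognition (0.04), COPII (0.09) and the cargo lectins (0.08) were above 0. The ratios already pair each farnesol RNA with its matched vehicle RNA, and no fit with a further replicate block was made. The causes were not tested.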
